A study of Mus musculus with 6 samples.

Results

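The genes described are the subunits of voltage-gated and related ion channels: sodium channels (Scn genes with a number), potassium channels (Kcn), calcium channels (Cacn) and the hyperpolarisation-activated cyclic nucleotide-gated channels (Hcn). Membership was set by gene symbol, from the probe sets that the platform annotation names for 1 gene, which gave 139 probe sets of 96 genes out of 20380 probe sets of 12393 genes tested. These families and the gene lists below were chosen with earlier results of these data known. The 96 genes comprised 9 sodium, 62 potassium, 23 calcium and 2 HCN channel genes. The arrays compared mouse cell lines of the hypothalamus that the labels describe as expressing neuropeptide Y, A_212 from adult hypothalamus and N_46 from embryonic hypothalamus, on 3 arrays each, 1 per plate. Both lines had been immortalised with the SV40 T-antigen, a viral oncoprotein that keeps cells dividing, and both were grown untreated to 70% confluence in 5% serum. Each age is represented by a single line, so the effect of age and other differences of the lines cannot be told apart, and the p-values measure the spread between plates.

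Channel proteins of these families let ions cross the membrane, many when the voltage changes and others as leak or when calcium, nucleotides or G proteins act on them. Sodium channels carry the upstroke of the action potential, and potassium channels return the membrane to rest and set how often a neuron fires. Calcium channels couple firing to peptide release and gene expression, and HCN channels carry a depolarising current that paces rhythmic firing. In each family a pore-forming subunit conducts the ion, and auxiliary subunits change its gating or its delivery to the surface. In the hypothalamus, neurons that make neuropeptide Y read glucose and hormones partly through such channels, the ATP-sensitive potassium channel among them.

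Every value below is a log2 value centred on its probe set, so that the median of each probe set over the 6 arrays is 0. Such values hold differences between arrays and no level, so they do not show whether a line expressed a given channel. The base of 2 is an inference from the method the authors used. Where the arrays of the lines do not overlap, centring makes the innermost values of a single probe set mirror each other around 0. The values of the 33 channel genes with several probe sets are means over them, and need not mirror or have a median of 0. Differences are A_212 minus N_46, so a positive value is higher in A_212, with the standard error (SE) that limma gave from 3 arrays per line. A gene counts as called where limma's p, adjusted by Benjamini-Hochberg over all 12393 genes, was under 0.05.

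Of the 96 channel genes, 12 were higher in A_212, 9 were lower and 75 did not pass the test. That is 21.9% called, beside 39.2% of all genes tested (18.3% higher and 20.9% lower in A_212). The median difference was -0.087 over the channel genes and -0.060 over all genes, and the median size of the difference was 0.13 over the channel genes and 0.17 over all genes. Most called differences were small: Kcnd1 and Kcnk2 alone were called at 1 log2 unit or more, a size that 5.83% of all genes reached. The arrays of the lines did not overlap for 12 channel genes on the higher side and 18 on the lower side, beside 22.2% and 28.9% of all genes, and Kcna6 was the 1 called gene whose arrays overlapped. Pore-forming subunits gave 14 calls among 66 genes (21.2%) and auxiliary subunits 7 among 30 (23.3%). By class, 22.2% of sodium, 17.7% of potassium and 30.4% of calcium channel genes were called, and 1 of the 2 HCN genes.

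The third A_212 array moved with these counts. Over the 75 uncalled channel genes it was the highest of the A_212 arrays for 57 (76.0%), whereas it was highest for 45.2% of the 7540 uncalled genes of all kinds, and its median deviation from the A_212 mean was 0.13, against -0.052 for replicate 1 and -0.068 for replicate 2. Without it, 23 channel genes were lower and 11 higher in A_212, which is 35.4% called beside 41.3% of all genes in the same setting. The 14 genes gained were all lower in A_212. With array weights, 22 were lower and 12 higher, again 35.4% called, beside 46.5% of all genes. That fit gave A_212 replicate 3 the lowest weight of the 6 (0.46), and also weighted N_46 replicate 1 low (0.56) and N_46 replicate 3 highest (2.25). Without N_46 replicate 3, 5 channel genes were lower in A_212 and 16.7% were called in all, beside 31.5% of all genes. The count on the higher side therefore lay between 11 and 12 with and without A_212 replicate 3, and the count on the lower side depended on these arrays. What set the array apart was not tested.

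**Figure D1:**
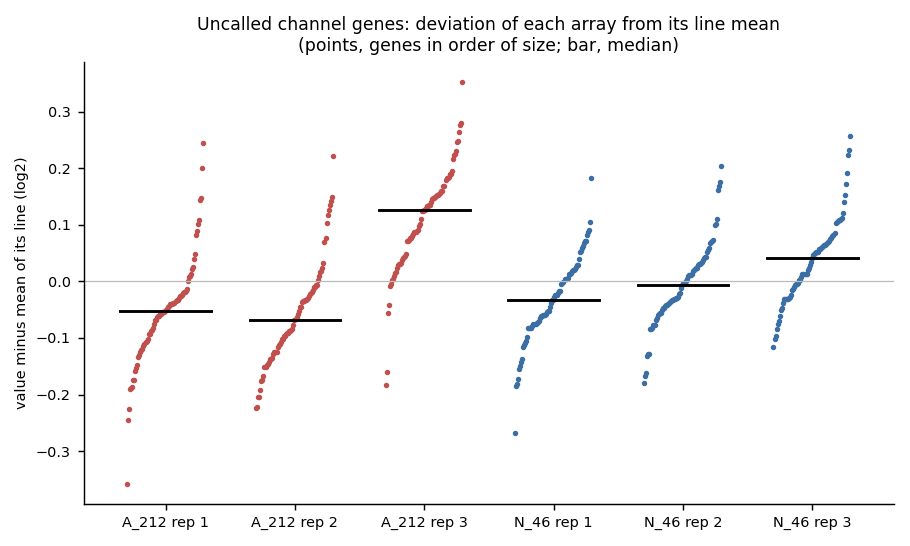
Deviation of each array from the mean of its line (log2 units, vertical axis) for the 75 channel genes that did not pass the test, with the A_212 arrays in red and the N_46 arrays in blue. Each point is a gene, in order of size within its array, and the bar is the median. A_212 replicate 3 has a median of 0.13, above those of A_212 replicates 1 (-0.052) and 2 (-0.068).

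**Figure D2:**
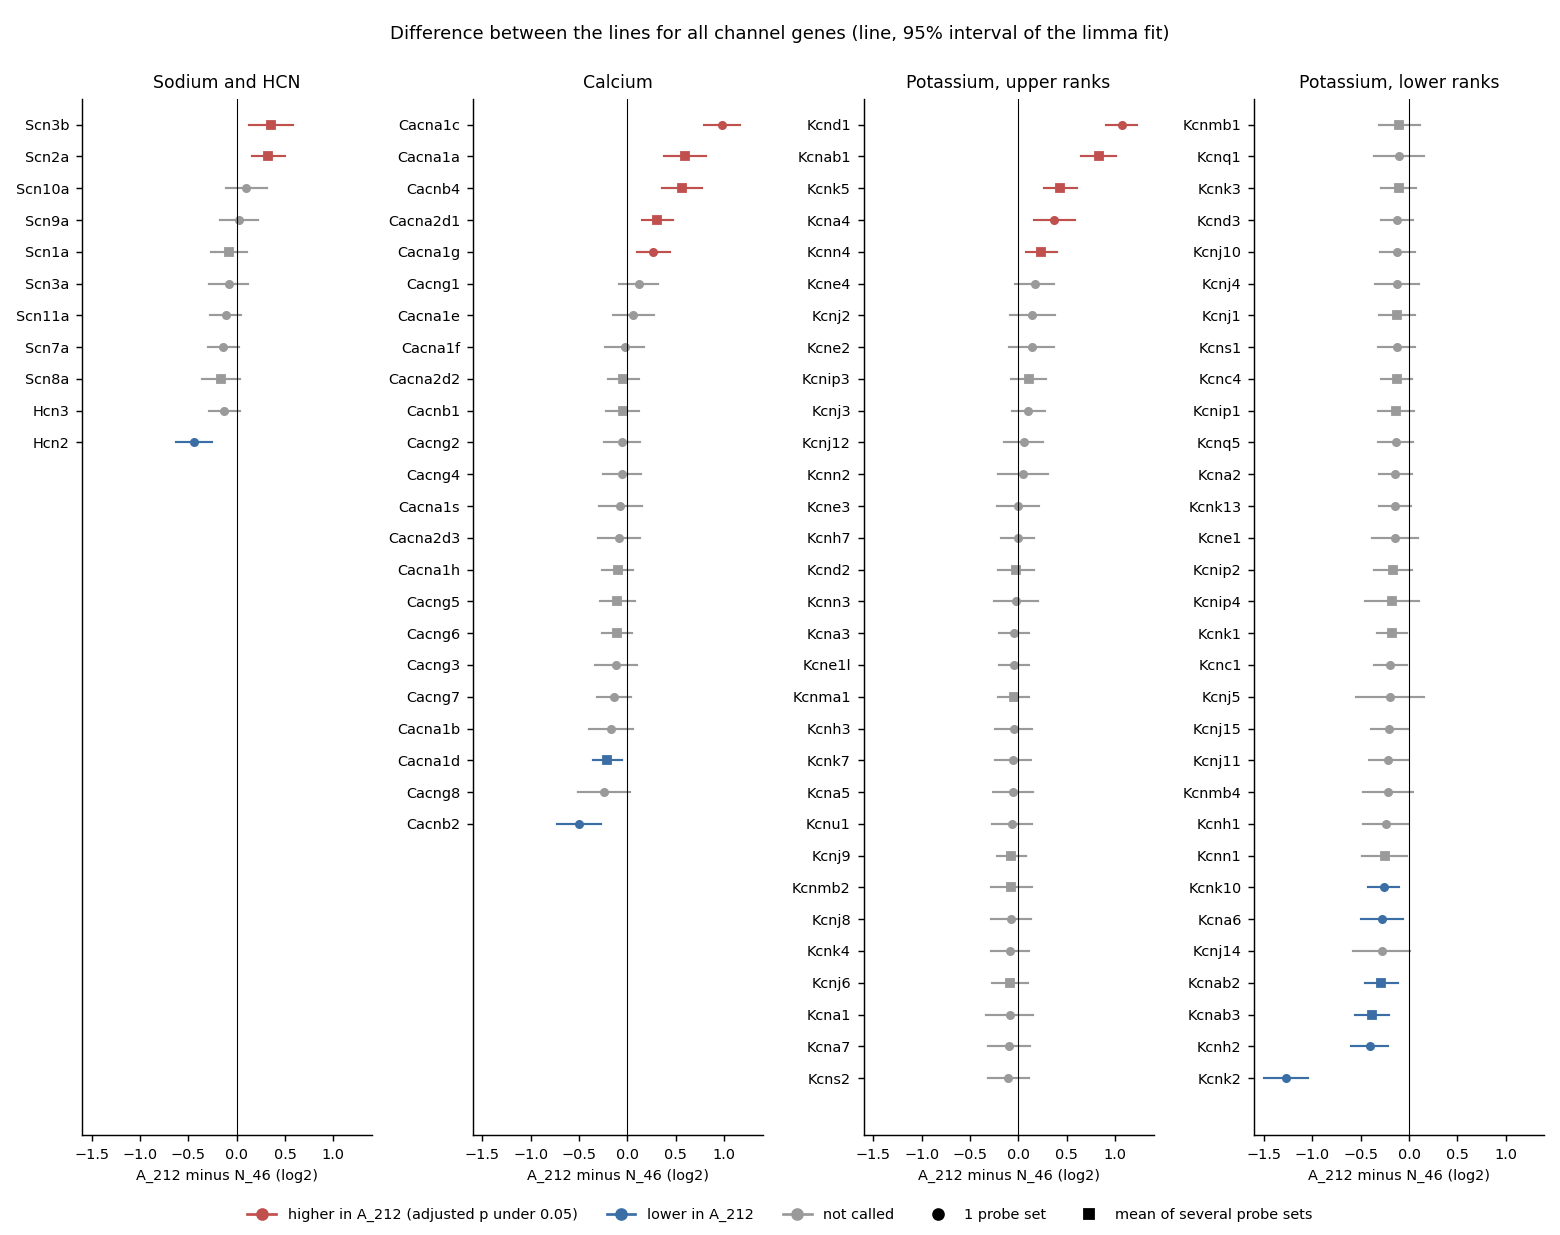
Difference A_212 minus N_46 (log2 units, horizontal axis) of all 96 channel genes, with the 95% interval of the limma fit as a line. Circles are genes with 1 probe set and squares are means of several. Red marks the 12 genes higher in A_212, blue the 9 lower ones, and grey the 75 that did not pass. The largest differences are those of Kcnk2 (-1.27) on one side and Kcnd1 (1.07) and Cacna1c (0.98) on the other.

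Among 9 sodium channel genes, 2 were higher in A_212, 0 were lower and 7 did not pass, with a median difference of -0.077. Scn2a, a pore-forming subunit of neurons in the brain, had centred values of 0.067, 0.19 and 0.16 in A_212 replicates 1 to 3, against -0.13, -0.30 and -0.13 in N_46. Every A_212 array thus lay above every N_46 array, with a difference of 0.33 ± 0.078 (SE) and an adjusted p of 0.0068. The call came from 1 of the 2 probe sets of Scn2a, which differed by 0.60 (adjusted p over all probe sets = 0.0021), while the other differed by 0.060 (adjusted p = 0.59). Scn3b, which encodes a beta subunit that modulates the pore, had values of 0.029, 0.43 and 0.29 in A_212 and -0.17, -0.11 and -0.029 in N_46. The lines were apart by a narrow gap only, A_212 replicate 1 being close to N_46 replicate 3, and the difference was 0.35 ± 0.10 (SE) with an adjusted p of 0.018. That call was lost without A_212 replicate 2 (0.26, adjusted p = 0.071), without A_212 replicate 3 (0.33, adjusted p = 0.056) and without N_46 replicate 1 (0.32, adjusted p = 0.055).

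The other brain pore subunits did not pass. Scn1a, found above all in inhibitory interneurons, differed by -0.077 (95% interval -0.26 to 0.11), and Scn3a, an embryonic form, by -0.084 (-0.29 to 0.12). Scn8a, the main subunit of mature nodes and initial segments, differed by -0.16 (-0.36 to 0.034). Scn9a, a subunit of sensory and sympathetic neurons that the hypothalamus also expresses, differed by 0.021 (-0.17 to 0.22). Scn8a was called lower in A_212 without A_212 replicate 3 (-0.24, adjusted p = 0.038) and with array weights (-0.23, adjusted p = 0.032). The sensory neuron subunits Scn10a and Scn11a and the glial, salt-sensing Scn7a lay between -0.14 and 0.10. In the RefSeq gene order, Scn2a stands beside Scn3a on chromosome 2, and Scn1a, Scn9a and Scn7a follow each other on the same chromosome.

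Among 62 potassium channel genes, 5 were higher in A_212, 6 were lower and 51 did not pass, with a median difference of -0.10. The lower count was 19 without A_212 replicate 3 and 3 without N_46 replicate 3. The voltage-gated pore subunits of the Kcna to Kcnd subfamilies gave 3 calls among 12 genes (25%, beside 39.2% of all genes). Kcnd1, on chromosome X, encodes a pore subunit of the rapidly inactivating A-type current and had the largest positive difference of all channel genes. Its centred values were 0.47, 0.52 and 0.62 in A_212 and -0.47, -0.57 and -0.55 in N_46. The spread within each line was small beside the gap between them, a difference of 1.07 ± 0.073 (SE) or 2.10-fold, with an adjusted p of 1.3e-06. Kcna4, another A-type pore subunit, had values of 0.20, 0.061 and 0.11 in A_212 and -0.061, -0.42 and -0.25 in N_46. It differed by 0.37 ± 0.095 (SE) (adjusted p = 0.01), with the N_46 arrays spread more widely than the A_212 arrays. Kcna6, a delayed rectifier of the same subfamily, had values of -0.32, -0.19 and 0.0078 in A_212 and -0.0078, 0.093 and 0.25 in N_46. These arrays overlapped, the difference of -0.28 ± 0.10 (SE) was just past the threshold (adjusted p = 0.048), and the call was lost in 9 of 16 other settings, among them without A_212 replicate 1 (-0.20, adjusted p = 0.16), without A_212 replicate 2 (-0.27, adjusted p = 0.12), without N_46 replicate 2 (-0.29, adjusted p = 0.093) and without N_46 replicate 3 (-0.21, adjusted p = 0.18).

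Of the 9 uncalled genes in these subfamilies, Kcnd2, the neuronal relative of Kcnd1, differed by -0.020 (95% interval -0.21 to 0.17), and Kcnd3 by -0.12 (-0.29 to 0.042). The intervals of both lie below that of Kcnd1 (0.91 to 1.23). Kcna2, which sets the firing threshold along axons, differed by -0.14 (-0.31 to 0.027), and the fast-spiking subunit Kcnc1 by -0.19. Kcna5, Kcna1 and Kcna6 follow one another on chromosome 6, with differences of -0.055, -0.088 and -0.28.

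The auxiliary Kv beta subunits are cytoplasmic proteins that bind Kcna channels and change their inactivation and delivery. All 3 measured genes were called, 1 higher and 2 lower in A_212, beside 39.2% of all genes. So few genes do not allow the shares to be compared. Kcnab1, which confers rapid inactivation, was higher in A_212, with values of 0.29, 0.48 and 0.35 in A_212 and -0.44, -0.39 and -0.56 in N_46. It differed by 0.83 ± 0.081 (SE) (adjusted p = 1.7e-05), and both of its probe sets were called, at 0.86 and 0.80. Kcnab3 went the other way, with values of -0.20, -0.20 and -0.091 in A_212 and 0.29, 0.26 and 0.091 in N_46. Both of its probe sets were called too, and the gene differed by -0.38 ± 0.079 (SE) (adjusted p = 0.0031). Kcnab2, the form most abundant in the brain, had values of -0.097, -0.078 and -0.14 in A_212 and 0.059, 0.24 and 0.24 in N_46. It differed by -0.29 ± 0.077 (SE) (adjusted p = 0.012), with its probe sets at -0.43 (called) and -0.14 (not called), and it lost its call without N_46 replicate 2 (-0.26, adjusted p = 0.061) and without N_46 replicate 3 (-0.26, adjusted p = 0.063). The other auxiliary families gave 0 calls, beside the same 39.2% of all genes. The 4 Kcnip genes, which encode calcium-binding partners of Kcnd channels, lay between -0.17 and 0.11, and the 5 Kcne genes between -0.15 and 0.17. The 3 Kcnmb genes, beta subunits of the large-conductance calcium-activated channel, lay between -0.22 and -0.071. At an unadjusted p under 0.05 these 12 genes also gave 0 calls, and without A_212 replicate 3 Kcnip1, Kcnip2, Kcnip4 and Kcnmb4 were called lower in A_212, as were Kcne1, Kcnip2, Kcnip4 and Kcnmb4 with array weights. Kcne4 was called higher without A_212 replicate 1 (0.26, adjusted p = 0.031).

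The two-pore potassium channels, which carry background or leak current and hold the resting potential, gave 3 calls among 8 genes. That share (37.5%) is near the 39.2% of all genes. Kcnk2 encodes TREK-1, a leak channel opened by stretch, warmth and fatty acids, and had the largest difference of any channel gene. Its centred values were -0.69, -0.49 and -0.61 in A_212, against 0.67, 0.88 and 0.49 in N_46. All A_212 arrays lay far below all N_46 arrays, at a difference of -1.27 ± 0.10 (SE), which is 2.42-fold lower in A_212 (adjusted p = 4.1e-06). Its close relative Kcnk10, which encodes TREK-2, was lower as well, with values of -0.17, -0.16 and -0.077 in A_212 and 0.12, 0.077 and 0.18 in N_46. That difference was -0.26 ± 0.070 (SE) (adjusted p = 0.013), and the call was lost without N_46 replicate 3 (-0.23, adjusted p = 0.071). Kcnk5, which encodes the alkaline-activated channel TASK-2, was higher in A_212, with values of 0.20, 0.25 and 0.25 in A_212 and -0.14, -0.33 and -0.14 in N_46. Both of its probe sets were called, at 0.61 and 0.27, and the gene differed by 0.44 ± 0.076 (SE) (adjusted p = 0.001). The third TREK family member, Kcnk4, differed by -0.081 (95% interval -0.28 to 0.12), and Kcnk1, Kcnk3, Kcnk7 and Kcnk13 lay between -0.18 and -0.054.

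The promoter windows of Kcnk2 and Kcnk5, the two-pore genes with the largest difference each way, are shown because they are related channels that differed in opposite directions. Each is the RefSeq window (GRCm38.p6) of 250 bases before and 50 after a gene start, and for Kcnk2, which has 4 such windows, 1 of those richest in CpG. The Kcnk2 window lies at chr1:189343304-189343603, minus strand, and the Kcnk5 window at chr14:20181733-20182032, minus strand. Capitals mark GC boxes (GGGCGG, read on both strands), of which the Kcnk2 window has 0 and the Kcnk5 window 3. Another Kcnk2 window with as many CpG, not shown, has 1. The windows hold 33 and 26 CpG dinucleotides, in the same order. The arrays do not show which start of Kcnk2 was used.
Kcnk2: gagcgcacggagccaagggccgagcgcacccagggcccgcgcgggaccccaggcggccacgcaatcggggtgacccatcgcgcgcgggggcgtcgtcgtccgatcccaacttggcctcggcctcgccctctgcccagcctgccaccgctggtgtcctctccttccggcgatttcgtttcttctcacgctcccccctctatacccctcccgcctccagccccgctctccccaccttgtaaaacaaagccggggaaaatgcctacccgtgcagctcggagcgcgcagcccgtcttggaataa
Kcnk5: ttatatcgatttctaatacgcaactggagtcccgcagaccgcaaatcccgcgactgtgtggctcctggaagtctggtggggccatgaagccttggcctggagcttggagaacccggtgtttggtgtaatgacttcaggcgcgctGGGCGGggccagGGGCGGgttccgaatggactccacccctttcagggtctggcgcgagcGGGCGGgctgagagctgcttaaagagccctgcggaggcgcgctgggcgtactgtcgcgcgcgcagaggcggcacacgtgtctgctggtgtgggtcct

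Of the 8 ether-a-go-go, Kcnq and Kcns genes, 1 was called (12.5%, beside 39.2% of all genes). Kcnh2 encodes the ERG channel, whose slow deactivation damps repetitive firing, and had values of -0.27, -0.35 and -0.084 in A_212 and 0.084, 0.17 and 0.26 in N_46. It differed by -0.41 ± 0.088 (SE) (adjusted p = 0.0037), with no overlap of the lines. The other 7 lay between -0.24 for Kcnh1 and -0.0078 for Kcnh7, and Kcnh1 was called lower without A_212 replicate 3 (-0.35, adjusted p = 0.011) and with array weights (-0.28, adjusted p = 0.027). Among 6 calcium-activated and Slo-type genes, 1 was called (16.7%, beside 39.2% of all genes). This was Kcnn4, the intermediate-conductance channel of non-excitable and proliferating cells. It had values of 0.20, 0.091 and 0.13 in A_212 and -0.14, -0.13 and -0.019 in N_46. The difference of 0.24 ± 0.072 (SE) (adjusted p = 0.024) was lost in 5 of 15 other settings, among them without A_212 replicate 1 (0.21, adjusted p = 0.082), without N_46 replicate 1 (0.22, adjusted p = 0.062) and without N_46 replicate 2 (0.22, adjusted p = 0.097). Kcnma1, the large-conductance channel, differed by -0.047 (95% interval -0.21 to 0.11), and Kcnn3, a small-conductance channel behind the afterhyperpolarisation, by -0.023 (-0.25 to 0.20). For Kcnn1, a relative of Kcnn3, 1 of 2 probe sets was called (-0.38, adjusted p = 0.046), and the gene was not (-0.25). The gene was called without A_212 replicate 3 (-0.38, adjusted p = 0.0049) and with array weights (-0.32, adjusted p = 0.013).

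None of the 13 inward rectifiers passed the limma test with all 6 arrays weighted alike, whereas 39.2% of all genes did. At an unadjusted p under 0.05 there were 2, Kcnj11 and Kcnj15. Kcnj11 encodes the pore of the ATP-sensitive channel by which glucose-sensing neurons respond to fuel, and had values of -0.20, -0.22 and 0.027 in A_212 and -0.027, 0.19 and 0.099 in N_46. The A_212 arrays overlapped those of N_46 through replicate 3 alone, and the difference was -0.21 ± 0.090 (SE) (adjusted p = 0.084). It was called without that array (-0.29, adjusted p = 0.024), and also without N_46 replicate 1 (-0.27, adjusted p = 0.0495) and with array weights (-0.28, adjusted p = 0.013). Kcnj8, the other pore of ATP-sensitive channels, common in smooth muscle, differed by -0.075 (95% interval -0.28 to 0.13). Kcnj3 and Kcnj6, which form G-protein-gated channels that peptides and GABA open, differed by 0.10 (-0.068 to 0.28) and -0.083 (-0.27 to 0.10). Of the 5 probe sets of Kcnj6, 1 was called lower in A_212 (-0.26, adjusted p = 0.03). Without A_212 replicate 3, Kcnj1 (-0.20, adjusted p = 0.045), Kcnj4 (-0.25, adjusted p = 0.024), Kcnj10 (-0.20, adjusted p = 0.045) and Kcnj14 (-0.40, adjusted p = 0.047) were also called lower. With array weights, Kcnj5 (-0.37, adjusted p = 0.046), Kcnj14 (-0.34, adjusted p = 0.037) and Kcnj15 (-0.25, adjusted p = 0.028) were. On all 6 arrays weighted alike, the remaining 9 lay between -0.28 for Kcnj14 and 0.14 for Kcnj2.

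Among 23 calcium channel genes, 5 were higher in A_212, 2 were lower and 16 did not pass, with a median difference of -0.057. The pore-forming alpha1 subunits gave 4 calls among 9 genes, a share (44.4%) near the 39.2% of all genes. Cacna1c, the L-type pore of heart, smooth muscle and brain, had values of 0.39, 0.55 and 0.56 in A_212 and -0.47, -0.39 and -0.58 in N_46. The lines were far apart on all arrays, at a difference of 0.98 ± 0.082 (SE) or 1.97-fold (adjusted p = 5.3e-06), and the gene has 1 probe set. Cacna1d, the L-type pore that opens at lower voltages and supports pacemaking, had values of -0.11, -0.10 and -0.050 in A_212 and 0.080, 0.17 and 0.098 in N_46. It was lower in A_212 by a small step, -0.21 ± 0.069 (SE) (adjusted p = 0.035), with 1 of its 2 probe sets called (-0.29) and the other not (-0.12). The call was lost in 8 of 15 other settings, among them without A_212 replicate 1 (-0.19, adjusted p = 0.093), without A_212 replicate 2 (-0.20, adjusted p = 0.081), without N_46 replicate 2 (-0.18, adjusted p = 0.15) and without N_46 replicate 3 (-0.22, adjusted p = 0.094). The L-type pores of skeletal muscle and retina, Cacna1s and Cacna1f, differed by -0.072 and -0.026.

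Among the pores that drive transmitter release, Cacna1a (P/Q-type) had values of 0.13, 0.39 and 0.46 in A_212 and -0.19, -0.39 and -0.22 in N_46. It differed by 0.59 ± 0.098 (SE) or 1.51-fold (adjusted p = 7.1e-04), and both probe sets were called, at 0.70 and 0.48. Cacna1b (N-type) differed by -0.17 (95% interval -0.40 to 0.056) and Cacna1e (R-type) by 0.060 (-0.15 to 0.27), and neither passed. Of the T-type pores, which open near rest and support bursts, Cacna1g had values of 0.069, 0.19 and 0.30 in A_212 and -0.069, -0.087 and -0.086 in N_46. The N_46 arrays lay close together and below the A_212 arrays, with a difference of 0.27 ± 0.077 (SE) (adjusted p = 0.019), and the call was lost without N_46 replicate 2 (0.26, adjusted p = 0.062) and without N_46 replicate 3 (0.26, adjusted p = 0.064). Its relative Cacna1h differed by -0.10 (-0.27 to 0.061).

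The auxiliary calcium channel subunits gave 3 calls among 14 genes, beside 39.2% of all genes called. Beta subunits bind the pore inside the cell and bring it to the surface. Cacnb4, the beta subunit prominent in brain, had values of 0.16, 0.30 and 0.32 in A_212 and -0.29, -0.46 and -0.14 in N_46. The mean difference of 0.56 ± 0.093 (SE) (adjusted p = 7.1e-04) hides a split between 2 probe sets. The first had values of 0.37, 0.57 and 0.52 in A_212 and -0.48, -0.88 and -0.37 in N_46, a difference of 1.06 (adjusted p over all probe sets = 6.7e-05), and the second differed by 0.064 (adjusted p = 0.6). Cacnb2, a beta subunit best known from the heart, went the other way, with values of -0.19, -0.29 and -0.11 in A_212 and 0.11, 0.29 and 0.52 in N_46. Its difference was -0.50 ± 0.10 (SE) (adjusted p = 0.0029), and the N_46 arrays were more spread than the A_212 arrays. Cacnb1, the skeletal muscle form, differed by -0.051 over 3 probe sets.

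Cacna2d1, the alpha2delta subunit that anchors channels at the surface and binds gabapentin, had values of 0.25, 0.19 and 0.11 in A_212 and -0.12, -0.16 and -0.099 in N_46. It was higher in A_212 by 0.31 ± 0.071 (SE) (adjusted p = 0.0053), with probe sets at 0.33 (called) and 0.29 (adjusted p = 0.052). Cacna2d2 and Cacna2d3 differed by -0.044 and -0.087 and did not pass. The 8 gamma subunits, of which several act on AMPA receptors rather than on calcium channels, gave 0 calls by limma, beside 39.2% of all genes. At an unadjusted p under 0.05 they also gave 0 with the arrays weighted alike, and with array weights Cacng8 was called lower (-0.32, adjusted p = 0.047). They lay between -0.24 for Cacng8 and 0.12 for Cacng1. Their genes stand in runs, Cacng1, Cacng4 and Cacng5 on chromosome 11 and Cacng7, Cacng8 and Cacng6 on chromosome 7.

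**Figure D3:**
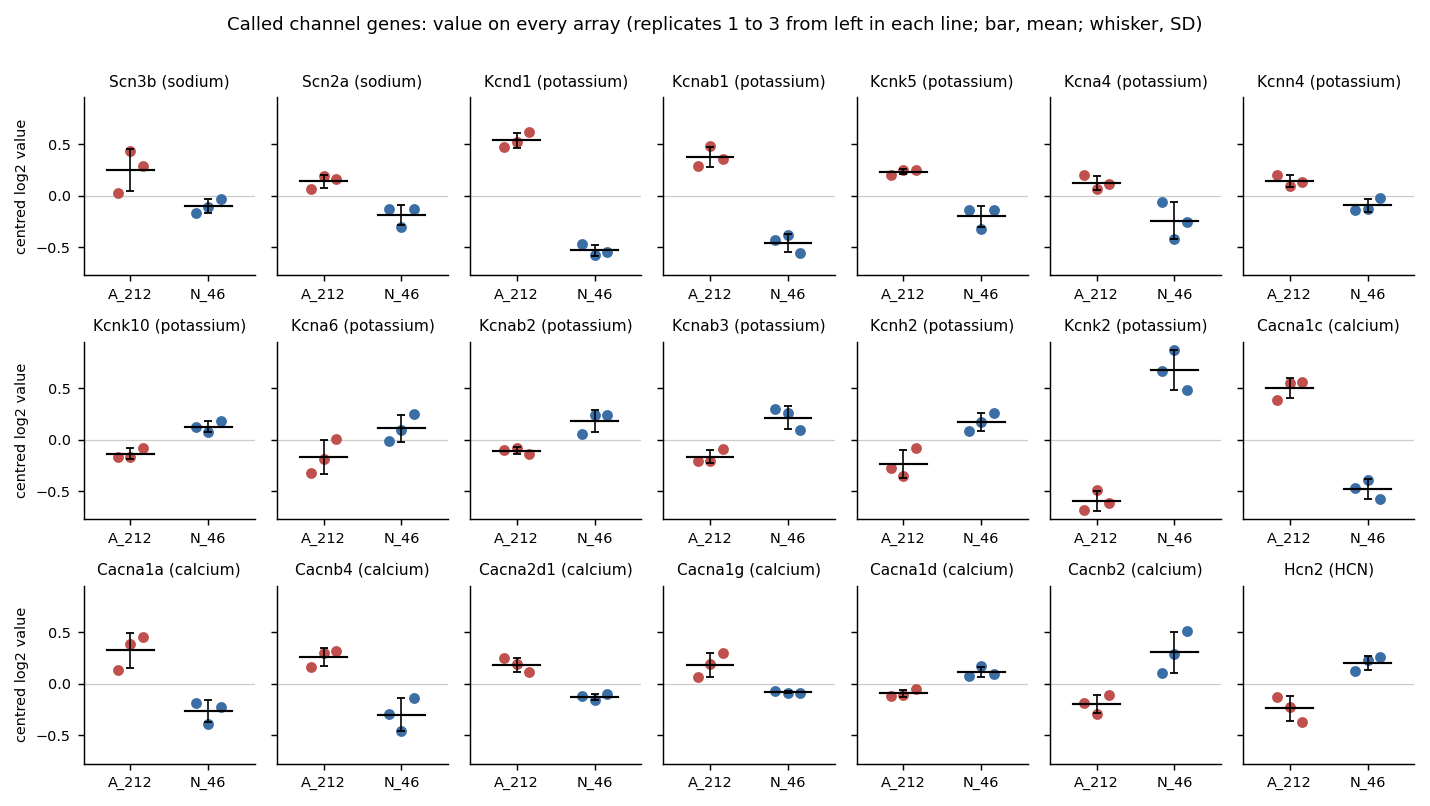
Centred log2 value (vertical axis) of the 21 called channel genes on each array, A_212 in red on the left and N_46 in blue on the right of each panel, replicates 1 to 3 from left to right, with the mean as a bar and the SD as a whisker. For 20 of the 21 genes the lines do not overlap, and Kcna6 is the exception. Kcnk2, Kcnd1, Cacna1c and Kcnab1 show the widest gaps.

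The promoter windows of Cacna1c and Cacna1d are shown because these L-type pores were called in opposite directions. For each gene the window richest in CpG was taken, of 3 for Cacna1c and 2 for Cacna1d, at chr6:119108446-119108745, minus strand and at chr14:30353437-30353736, minus strand (GRCm38.p6). Capitals mark GC boxes on either strand, overlapping copies counted singly, and each window has 6. The other windows of both genes, not shown and poorer in CpG, have 0. The arrays do not show which start of either gene was used. GC content was 81.3% in the Cacna1c window and 87.3% in the Cacna1d window.
Cacna1c: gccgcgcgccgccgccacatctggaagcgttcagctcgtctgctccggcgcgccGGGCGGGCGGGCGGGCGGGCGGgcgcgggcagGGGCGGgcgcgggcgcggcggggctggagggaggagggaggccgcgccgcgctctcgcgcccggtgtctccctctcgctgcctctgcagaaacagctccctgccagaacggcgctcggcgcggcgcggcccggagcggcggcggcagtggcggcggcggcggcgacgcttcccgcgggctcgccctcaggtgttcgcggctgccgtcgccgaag
Cacna1d: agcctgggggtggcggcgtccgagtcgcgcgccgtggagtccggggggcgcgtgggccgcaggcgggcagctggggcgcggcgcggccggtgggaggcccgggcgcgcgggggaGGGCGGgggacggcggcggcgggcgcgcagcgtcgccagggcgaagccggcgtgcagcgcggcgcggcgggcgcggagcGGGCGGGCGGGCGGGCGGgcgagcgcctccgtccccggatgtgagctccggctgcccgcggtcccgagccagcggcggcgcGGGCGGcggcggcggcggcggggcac

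Of the 2 HCN genes measured, Hcn2 was lower in A_212 and Hcn3 did not pass. Hcn2, a pacemaker channel found throughout the brain, had values of -0.13, -0.22 and -0.37 in A_212 and 0.13, 0.23 and 0.26 in N_46. All A_212 arrays lay below all N_46 arrays, and the difference was -0.44 ± 0.083 (SE), or 1.36-fold lower in A_212 (adjusted p = 0.0016). Hcn3 had values of -0.15, -0.12 and -0.0056 in A_212 and 0.0071, 0.0056 and 0.092 in N_46. Those arrays did not overlap either, but the difference of -0.13 ± 0.073 (SE) did not pass (adjusted p = 0.2). The Hcn2 window (GRCm38.p6, chr10:79716384-79716683, plus strand) is shown as that of the called pacemaker gene, with its 3 GC boxes in capitals, here read on the opposite strand.
Hcn2: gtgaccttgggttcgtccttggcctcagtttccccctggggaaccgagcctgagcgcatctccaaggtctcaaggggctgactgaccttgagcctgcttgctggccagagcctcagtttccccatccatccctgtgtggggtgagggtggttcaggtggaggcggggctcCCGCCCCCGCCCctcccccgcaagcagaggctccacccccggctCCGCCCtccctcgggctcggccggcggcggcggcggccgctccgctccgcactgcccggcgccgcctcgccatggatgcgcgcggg

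RefSeq promoter windows were found for 76 of the 96 channel genes, 104 windows in all. Windows of the same gene were counted singly, so genes with several starts weigh more in what follows. The windows of Cacna1c alone, a gene higher in A_212, ranged from 51.3% to 81.3% GC. Median GC content was 51.3% over 15 windows of 8 genes higher in A_212, 60.5% over 16 windows of 8 genes lower in A_212 and 58.3% over 73 windows of 60 uncalled genes, against 52.7% over all 32851 windows. A GC box was found in 46.7%, 43.8% and 47.9% of these windows, in the same order, and in 35.7% of all windows. The RE1 element, to which the repressor REST binds to silence neuronal genes elsewhere, was searched on both strands by its left part, TTCAGCACC, and by its right part. Neither was found in any of the 104 windows, and in all windows the left part was present in 0.371% and the right part in 0.521%. The cyclic AMP element TGACGTCA was found in 0 of the 104 windows and in 1.79% of all. Searched on both strands as well, the TATA box TATAAA was in 4.81% of the channel windows and 13.6% of all, CCAAT in 26.9% and 37.4%, the AP-1 site TGANTCA in 4.81% and 7.81%, and the E box CANNTG, which can overlap the others, in 71.2% and 72.3%. These counts describe the letters of short windows and say nothing of binding.

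Among the 33 channel genes with several probe sets, 11 were called, and all probe sets were called for 4 of them (Cacna1a, Kcnab1, Kcnab3 and Kcnk5). For the other 7, the gene was called on the mean of 2 probe sets, of which 1 was called singly. The 2 probe sets were nearly alike for Cacna2d1 (0.33 and 0.29) and Kcnn4 (0.25 and 0.22), and far apart for Cacnb4 and Scn2a. Of the 139 channel probe sets, 15 were higher in A_212 and 13 lower in a fit over single probe sets, 20.1% together, beside 37.4% of all 20380 (17.8% higher and 19.6% lower). No channel gene had probe sets called both ways, and 4 uncalled genes (Kcnip1, Kcnj6, Kcnk1 and Kcnn1) had 1 called probe set each, lower in A_212 in every case. The 10 other called genes, Kcnk2, Kcnd1 and Cacna1c among them, have 1 probe set and so no second reading on these arrays.

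**Figure D4:**
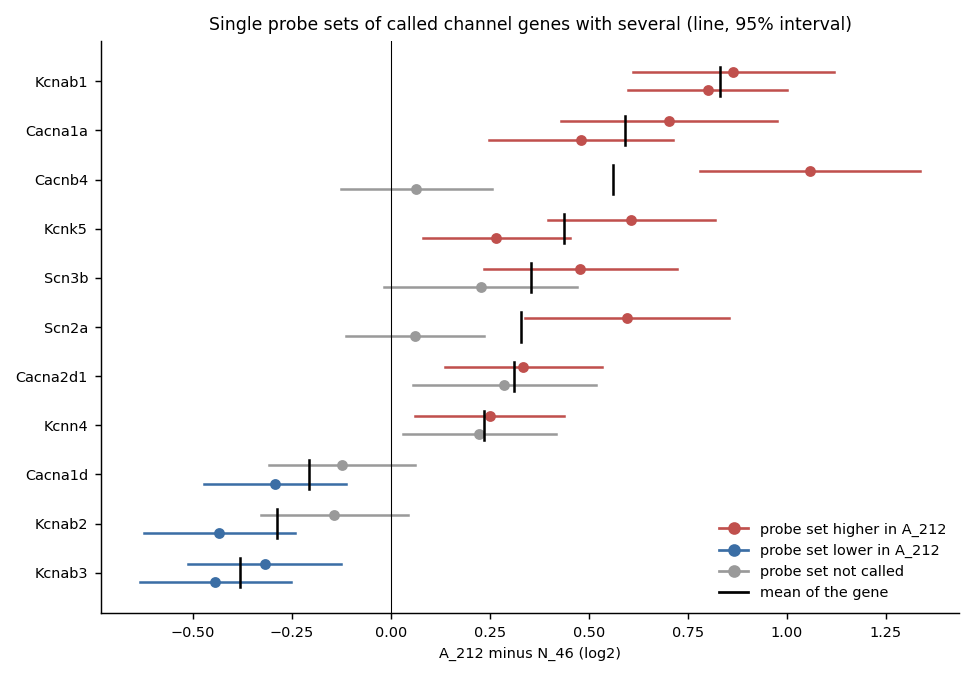
Difference A_212 minus N_46 (log2 units, horizontal axis) of single probe sets for the 11 called channel genes with several, with 95% intervals of the limma fit. Red marks probe sets higher in A_212, blue lower, grey not called, and the black bar is the mean of the gene. The probe sets of Cacnb4 (1.06 and 0.064) and Scn2a (0.60 and 0.060) lie farthest apart.

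Genes whose products bind or regulate these channels differed in both directions. Of 16 measured sodium channel partners and axon initial segment genes, 3 were higher in A_212, 3 lower and 10 did not pass (median difference -0.052). Ank3, which encodes ankyrin-G, the anchor of sodium channels at the initial segment, lay between -1.41 and -1.08 on the A_212 arrays and between 1.05 and 1.41 on the N_46 arrays, and differed by -2.47 ± 0.11 (adjusted p = 4.2e-08). This was a larger difference than that of any channel gene, on the side opposite to Scn2a and Scn3b. Nrcam, a cell adhesion molecule of the same site, was higher in A_212 (0.83). The ubiquitin ligases that remove channels from the surface went both ways, Nedd4 at 0.61 and Nedd4l at -0.44. Of 23 calcium channel and calcium release partners, 3 were higher, 3 lower and 17 did not pass (median -0.056). Rrad (1.02 ± 0.13) and Gem (0.95 ± 0.13), small GTPases that bind beta subunits and inhibit voltage-gated calcium channels, were both higher in A_212. Rem2, on the same list, did not pass (0.016). Of the called calcium channel genes, 5 were higher in A_212, Cacna1c, Cacna1a and Cacnb4 among them, and 2 were lower, Cacnb2 (-0.50) and Cacna1d (-0.21). Orai1, the store-operated calcium channel, was lower (-0.37).

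Of 16 potassium channel partners, a list that also holds the sodium pump, 2 were higher in A_212, 4 lower and 10 did not pass (median -0.055). The G-protein subunits Gng2 (-1.02) and Gnb1 (-0.43) and the pump subunit Atp1b1 (-0.90) were lower, as was Amigo1 (-0.39), a cell adhesion protein, and the scaffold Dlg1 (0.49) was higher. The sulphonylurea receptors that complete ATP-sensitive channels, Abcc8 (-0.12) and Abcc9 (0.027), did not pass. Of 46 other ion channels, 8 were higher, 5 lower and 33 did not pass (median -0.060). The chloride channel Cftr (1.47) and the proton channel Hvcn1 (1.17) were higher in A_212, and the chloride transporter Clcn3 (-1.43) and the cation channels Trpc1 (-1.05) and Trpv4 (-0.62) were lower. The shares called, 37.5%, 26.1%, 37.5% and 28.3% in these 4 lists, stand beside 21.9% of the channel genes and 39.2% of all genes.

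**Figure D5:**
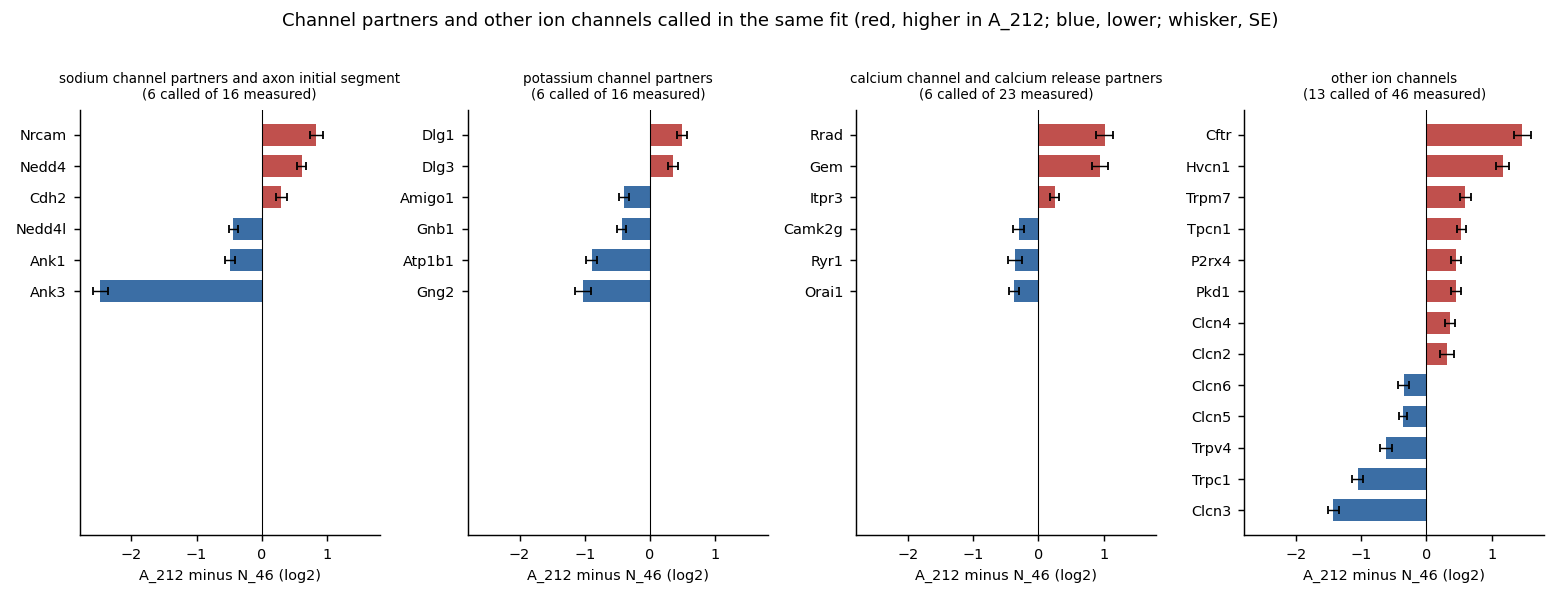
Difference A_212 minus N_46 (log2 units, horizontal axis, bars from 0) of the called genes in 4 lists of channel partners and other ion channels, with the SE as a whisker. Red bars are higher in A_212 and blue bars lower. Ank3 (-2.47) has the longest bar, and Rrad (1.02) and Gem (0.95) lead the calcium channel partners.

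Markers of neurons and of cell types that use other channel sets were read from the same arrays. Of 20 neuron markers, 4 were higher in A_212 (Stmn2 3.09, Tubb3 1.13, Elavl2 0.75 and Syn1 0.66) and 2 lower (Map2 -0.25 and Gap43 -0.24). The median difference of the list was -0.050, with 13 of 20 members negative, whereas its mean centred value was 0.096 to 0.14 on the A_212 arrays and -0.17 to -0.084 on the N_46 arrays. Fibroblast and mesenchymal markers gave 12 calls higher in A_212 and 1 lower among 18, with means of 0.75 to 0.92 in A_212 and -0.92 to -0.71 in N_46. Smooth muscle and pericyte markers gave 8 higher and 1 lower among 13, with means of 0.34 to 0.47 in A_212 and -0.70 to -0.36 in N_46. Of the channel genes described above as found in smooth muscle, Cacna1c was higher in A_212 (0.98) and Kcnj8 did not pass (-0.075). The part of these markers in the channel differences was not tested. Calls higher and lower in A_212 were 2 and 2 of 12 astrocyte markers, 3 and 1 of 11 oligodendrocyte lineage markers, 1 and 2 of 12 microglia markers and 3 and 3 of 12 endothelial markers. The shares called were 30% of neuron, 33.3% of astrocyte, 36.4% of oligodendrocyte lineage, 25% of microglia, 50% of endothelial, 72.2% of fibroblast and mesenchymal and 69.2% of smooth muscle and pericyte markers, beside 39.2% of all genes. Since centring removed levels, whether any of these markers was absent from a line cannot be read.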

How the data were processed

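RNA from A_212 and N_46 cells was hybridised to 1 Affymetrix array per plate, 3 per line. Per the submitters' processing notes the authors used RMA, with no version given. The deposited values were taken as log2, the base RMA gives, which no source states. Each of the 22690 probe sets has a median of 0 over the 6 arrays (within 1e-05), so the authors' values hold no level, and background correction, a filter on dim probe sets and scan batches could not be tried. Values were used without further normalization. Probe sets named for 1 gene alone (20380) were averaged to 12393 genes and tested with limma 3.58.1 (lmFit, eBayes, R 4.3.3), A_212 minus N_46, with Benjamini-Hochberg adjustment over all genes, and once more as single probe sets. Depth does not apply to arrays, and their number limits the precision. On simulated data for this comparison (12393 genes), 24% of genes changed by 0.3 log2 units, 70% at 0.5, 98% at 1 and 100% at 2 were recovered, with 9 false among 155 calls. The simulation changed 50 genes at each size, a far smaller share than the 39.2% of all genes called on the arrays. Its adjustment was therefore stricter, and these rates can be lower than those of the real fit. Genes were named if called, or if on a list of 26 names, of which 21 were measured and the others are not reported here. Others were named as ends of a range or after their values were seen. The members and lists were chosen with earlier results of these data known. No pair of arrays held identical values.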

Additional observations from a re-analysis of the deposited data

How the results depend on the processing

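Of the 21 calls, those of Kcnd1, Kcnk2, Kcnab1, Cacna1c and Cacna1a were kept in every setting tried that gave a value for them. The plate numbers did not pair the arrays (deviations of same-numbered arrays correlated at -0.027, -0.012 and 0.093, and not every array correlated best with its own number), and with the replicate block 12 channel genes were higher in A_212 and 10 lower, with 1 calcium channel gene lower (Cacna1d lost its call, and Kcnh1 at -0.24, adjusted p = 0.049, and Kcnn1 at -0.25, adjusted p = 0.039 by limma, gained one). Leaving out 1 array at a time gave 10 to 12 channel genes higher and 5 to 23 lower, 1 to 2 sodium channel genes higher and 0 to 1 lower, 3 to 19 potassium channel genes lower and 1 to 2 calcium channel genes lower. Against a bound of 1.2-fold (limma's treat), 1081 of all genes were higher and 912 lower, and among channel genes 5 were higher and 1 lower, of which 0 sodium, 2 potassium and 3 calcium channel genes were higher and 1 potassium, 0 calcium and 0 HCN channel genes were lower. With array weights 22 channel genes were lower, 1 of them a sodium and 17 potassium channel genes. Asking that all probe sets of a gene be called left 7 channel genes higher, with 0 sodium and 3 calcium channel genes higher and 1 calcium channel gene lower. Probe sets with plain names alone gave 3 potassium and 3 calcium channel genes higher and 1 calcium channel gene lower, and setting all arrays to the same median left 1 calcium channel gene lower. Of 568 values of single named genes under these settings, 505 kept direction and call, 47 lost the call, 6 gained one and 10 changed sign, all of genes that did not pass: Scn1a 0.015 with all probe sets required, Scn9a -0.069 without N_46 replicate 2, Kcnj8 0.00075 without A_212 replicate 2, Kcnn3 0.0071 at the same median and 0.044, 0.023 and 0.028 without A_212 replicate 1, A_212 replicate 2 and N_46 replicate 2, and Kcnd2 0.0098 at the same median, 0.012 with the median of probe sets and 0.059 without A_212 replicate 1. The lowest or highest values on the other side, with 1 array left out, were 0.091 for Scn9a (N_46 replicate 3), -0.16 for Kcnj8, -0.14 for Kcnn3 and -0.083 for Kcnd2 (A_212 replicate 3). The cause of these shifts was not tested. With 3 arrays per line, genes with differences of like size could fall on either side of the threshold. Cacna1g (0.27) was called and Kcnj14 (-0.28) was not. An uncalled channel gene is therefore not shown to be alike in both lines.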
